A study of Triticum aestivum with 20 samples.

Results

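The tubulin genes were followed through anther development in the wheat temperature-sensitive genic male sterile line BS366. Members were all probe sets of the Affymetrix GeneChip Wheat Genome Array whose gene symbol or synonym begins with TUB or Tub. This rule found 10 of the 28894 probe sets, for 6 genes. The alpha-tubulin gene TUBA had 2 probe sets (Ta.723.1.S1_at and Ta.812.1.S1_x_at). The 5 beta-tubulin genes were tubb1 (Ta.212.1.S1_at), tubb2 (Ta.1544.1.S1_at), tubb3 (Ta.2837.1.S1_s_at), Tubb4 (Ta.28022.1.S1_x_at) and Tubb5, which had 4 probe sets (Ta.214.1.S1_at, Ta.214.1.S1_x_at, Ta.214.2.A1_at and Ta.214.2.A1_x_at). The beta genes carry LOC symbols and were found through their synonyms. Only 845 probe sets have a gene symbol at all, so tubulin transcripts measured by unnamed probe sets are not among the members.

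After natural vernalization in the field, BS366 plants spent 5 d in 1 of 4 conditions and were then moved to 20 °C with 12 h of light. Condition A was 10 °C with 12 h of light, B was 10 °C with 14 h, E was 20 °C with 12 h and F was 20 °C with 14 h. A and B are called cold here and E and F control. BS366 is known as male sterile in the cold and fertile at 20 °C, but its sterility is described for another cold temperature than 10 °C and for 12 h of light only, and whether the plants of conditions A and B were sterile was not analysed here. Anthers of 5 lengths, 1.5, 2.0, 2.2, 2.5 and 3.0 mm, served as stages, with 1 array for each condition and stage, 20 arrays in all. No fertile wheat line was among the samples, so a response to cold cannot be told apart from one particular to BS366.

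Alpha- and beta-tubulin join as dimers that polymerise into microtubules, the hollow filaments that form the mitotic and meiotic spindle, guide the laying down of cellulose and carry the vesicles that build the cell plate. Plants hold several genes for each subunit, called isotypes, whose proteins are closely alike and can assemble together. In the anther, microtubules separate the meiotic chromosomes and build the phragmoplast that divides meiotic cells into dyads and tetrads. Later, microtubules support the asymmetric division and growth of pollen.

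The values were log2 expression values as deposited, so a difference of 1 is a 2-fold change. The 2 arrays of a temperature and stage, which differ in photoperiod, served as its replicates. No condition and stage was repeated, so p-values measure only the spread between these arrays, part of which may be technical. Array medians lay between 6.14 and 6.46. The lowest medians were those of condition B at stages 2.5 (6.19) and 3.0 (6.14). The test took in 13805 probe sets, those above the 60th percentile of their array in both arrays of some group. A change "passed" at an adjusted p under 0.05 from limma's test (Benjamini-Hochberg over all 13805) and was "called" if it was also at least 2-fold. Anther tissue was checked with raftin, a tapetum gene, whose 4 probe sets all passed the filter and stayed at or above 7.7 in every array.

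Of the 10 members, 9 passed the filter, and these lay at or above the 79.2nd percentile of every array, so no group decided their entry. TUBA Ta.812.1.S1_x_at, tubb1, tubb2 and tubb3 were at or above the 97.6th percentile in all 20 arrays. Probe sets ending in _x_at or _s_at may bind transcripts of near-identical family members, which holds for TUBA, tubb3, Tubb4 and 2 of the Tubb5 sets, and wheat carries copies of each gene on 3 subgenomes. Values of these sets may therefore mix several tubulin transcripts. Levels of different probe sets were not set against each other, since probes differ in how strongly they bind.

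**Figure D1:**
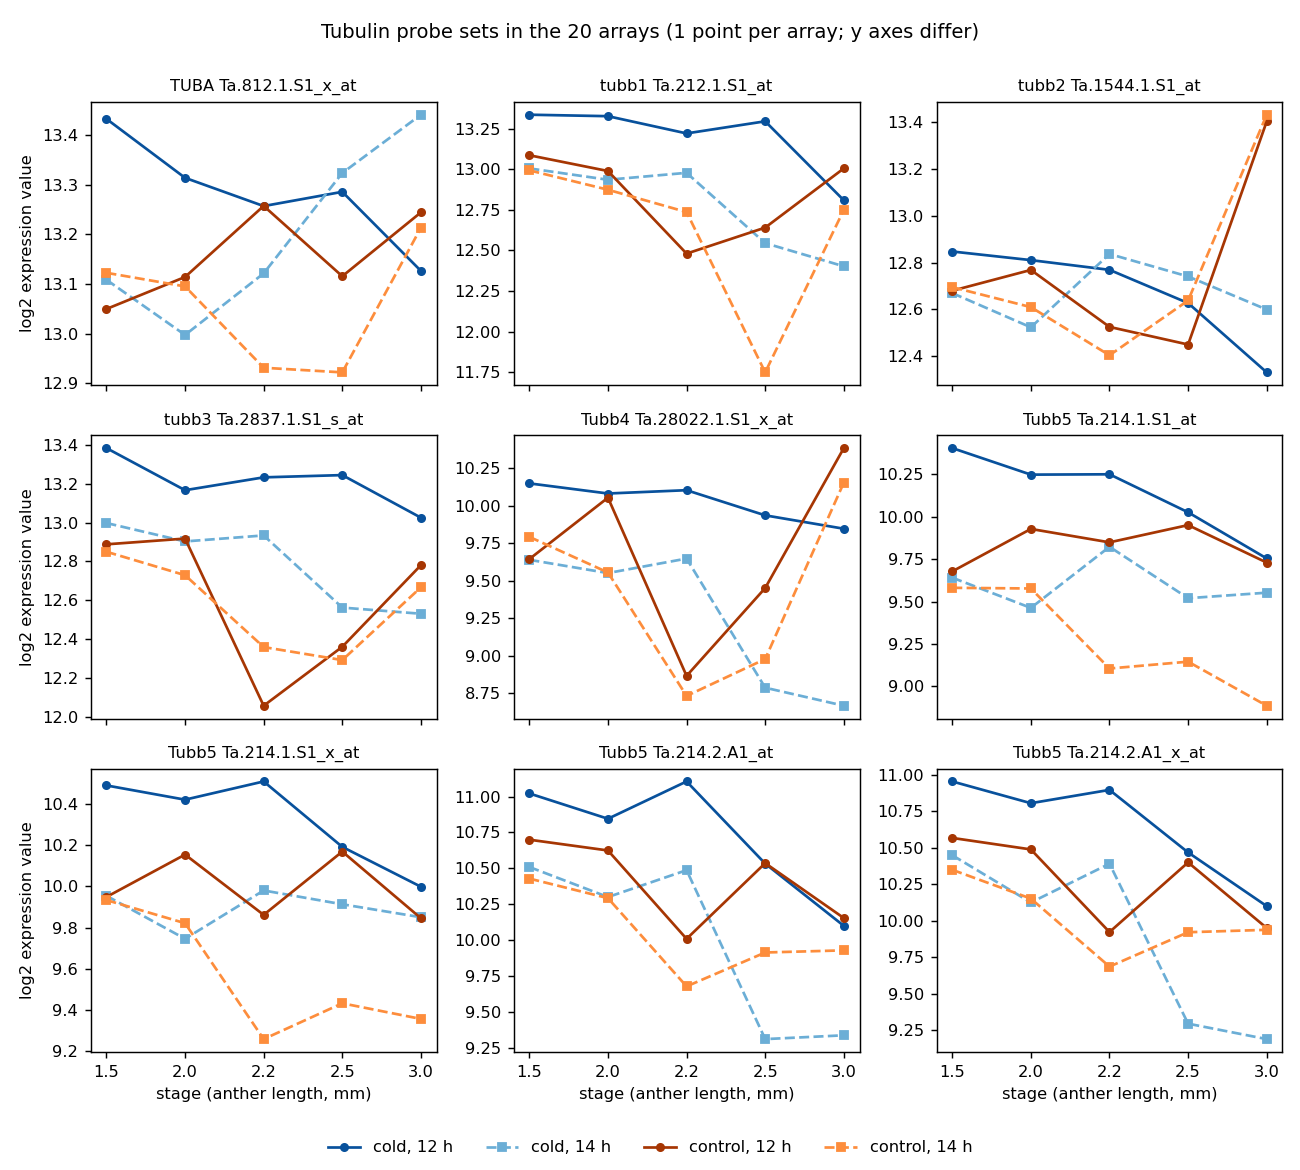
Log2 expression value (y axis, own scale in each panel) of the 9 tubulin probe sets that passed the filter against stage as anther length in mm (x axis), with 1 point per array, blue for cold and orange to brown for control, solid for 12 h and dashed for 14 h of light. The control arrays of tubb2 and Tubb4 climb at stage 3.0, to 13.40 and 13.43 for tubb2 and to 10.38 and 10.15 for Tubb4, while the cold arrays do not.

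The bright probe set of the alpha-tubulin TUBA, Ta.812.1.S1_x_at, stayed nearly level. It read 13.43, 13.31, 13.26, 13.29 and 13.13 over the 5 stages in condition A and 13.11, 13.00, 13.12, 13.32 and 13.44 in B. In the control it read 13.05, 13.11, 13.26, 13.12 and 13.24 in condition E and 13.12, 13.10, 12.93, 12.92 and 13.21 in F. The whole range over the 20 arrays was 0.52, the smallest of the 9 probe sets, and in the order of its 10 group means every neighbouring pair overlapped. No comparison of stage, temperature or photoperiod passed for it. The largest difference between cold and control was 0.29 ± 0.15 (SE, n = 2 arrays a group, limma adjusted p = 0.172) at stage 2.5.

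The other TUBA probe set, Ta.723.1.S1_at, was dim and was not tested. It read 7.38, 6.03, 5.81, 3.01 and 5.41 in condition A and 6.02, 5.72, 8.61, 7.75 and 5.41 in B. In control anthers it read 2.60, 5.57, 3.99, 2.96 and 3.16 in condition E and 4.92, 4.68, 5.76, 5.32 and 2.28 in F. At the same stage and photoperiod the cold array was the higher one each time, by 0.05 to 4.77. These values lay between the 0.9th and the 77.7th percentile of their arrays, and 2.28 is the lowest value any probe set takes. Each cold group mean of this set stood above each of its control group means. The 2 arrays of 1 group differed by up to 4.74 (stage 2.5, cold), close to the largest difference between cold and control. Whether both TUBA probe sets differ in their response to cold is therefore not settled.

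In control anthers the beta-tubulins did not move as 1 group. Over the 5 stages tubb2, Tubb4, tubb3, tubb1 and Tubb5 Ta.214.2.A1_at passed limma's F-test, and Tubb4 alone was called, in that its stage means also spanned at least 2-fold. That is 5 of 9 probe sets that passed, beside 50.4% of all probe sets tested, and 1 of 9 called, beside 38.5%. The median range of the 9 stage courses was 0.66, against 0.90 over all probe sets tested. A bulk measurement cannot tell fewer cells of a type apart from less RNA per cell, here or below.

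Tubb4 followed a course with a trough and a late peak. Its control values were 9.64, 10.05, 8.86, 9.45 and 10.38 in condition E and 9.79, 9.55, 8.73, 8.98 and 10.15 in F. Both arrays were lowest at stage 2.2 and highest at stage 3.0 of the control, and the A arrays of stages 1.5, 2.0 and 2.2 (10.15, 10.08 and 10.10) came close to the lower of these, 10.15 in F. The mean went from 9.80 ± 0.35 (SD, n = 2) at stage 2.0 to 8.80 ± 0.09 at stage 2.2, a log2 change of −1.01 ± 0.27 (SE, limma adjusted p = 0.0438). It then rose from 9.21 ± 0.33 at stage 2.5 to 10.27 ± 0.16 at stage 3.0, by 1.05 ± 0.27 (adjusted p = 0.0103). Over the 5 stages the fitted means spanned 1.47 (limma F-test, adjusted p = 0.0046).

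The fall into the trough was fragile. It missed the threshold when any 1 of 14 of the 20 arrays was left out, with adjusted p-values of 0.262 and 0.149 without the E or F array of stage 2.0 and 0.258 and 0.0527 without the E or F array of stage 2.2. The late rise missed it without the F array of stage 3.0 (0.0939) or the E array of stage 2.5 (0.0586). The span over the 5 stages passed without each single array.

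The isotype tubb2 was flat until the last stage and then rose. Its control values were 12.68, 12.77, 12.52, 12.45 and 13.40 in condition E and 12.69, 12.61, 12.40, 12.64 and 13.43 in F. The 2 arrays of stage 3.0 stood above all 18 other arrays. The step from stage 2.5 (12.54 ± 0.13, SD, n = 2) to 3.0 (13.42 ± 0.02) was 0.87 ± 0.14 (SE, limma adjusted p = 0.000292), 1.83-fold. It passed in all of the 29 alternative settings that gave a value, single arrays left out among them.

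The isotypes tubb1 and tubb3 had their lowest control means at mid stages. The control values of tubb1 were 13.09, 12.99, 12.48, 12.64 and 13.00 in condition E and 12.99, 12.87, 12.74, 11.75 and 12.75 in F. Its mean was lowest at stage 2.5, where the 2 arrays differed by 0.89. The steps towards it did not pass (−0.32 from 2.0 to 2.2, limma adjusted p = 0.375, and −0.41 from 2.2 to 2.5, adjusted p = 0.511), and the step from 2.5 to 3.0 did at 0.68 ± 0.21 (adjusted p = 0.0297). Without the F array of stage 2.5, which holds the lowest tubb1 value of the 20 arrays, that step was 0.37 (adjusted p = 0.287), and without the E or F array of stage 3.0 its adjusted p was 0.0969 or 0.14. For tubb3, the control values were 12.89, 12.92, 12.06, 12.36 and 12.78 in E and 12.85, 12.73, 12.36, 12.29 and 12.67 in F. Both arrays of stages 2.2 and 2.5 lay below every other control array of tubb3, and none of its steps passed (2.2 minus 2.0 was −0.62 ± 0.18, adjusted p = 0.0634, and 3.0 minus 2.5 was 0.40 ± 0.18, adjusted p = 0.133), although the F-test over stages did (span 0.66, adjusted p = 0.0227, or 0.0591 without the F array of stage 1.5). The F-test of tubb1 gave a span of 0.84 and an adjusted p of 0.0277, which was 0.0506 to 0.185 when 1 of 4 control arrays was left out (E or F of stage 3.0, F of 1.5 or F of 2.5). That of Tubb5 Ta.214.2.A1_at gave 0.72 and an adjusted p of 0.0487, and missed the threshold without any 1 of 17 arrays.

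Among the single steps in control anthers, 0 of 9 tubulin probe sets were called between stages 1.5 and 2.0 (0.0% of all tested). There limma gave 0 with an unadjusted p under 0.05 (971 of all 13805). From 2.0 to 2.2, 1 was called (Tubb4, against 4.83% of all tested), and it was the only one that passed as lower (2.59% of all tested passed as lower). All 9 estimates of that step were negative, with a median of −0.43 against −0.09 over all probe sets tested, and 1 of 9 became positive when each array was centred on its median. From 2.2 to 2.5, 0 were called (0.0145% of all tested), with 0 at an unadjusted p under 0.05 (1507 of all 13805). From 2.5 to 3.0, 1 was called (20.4%) and 3 passed as higher (12.1%), tubb2, Tubb4 and tubb1. The 4 Tubb5 sets were at −0.18 to −0.24 in that last step, with adjusted p-values of 0.421 to 0.568.

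**Figure D2:**
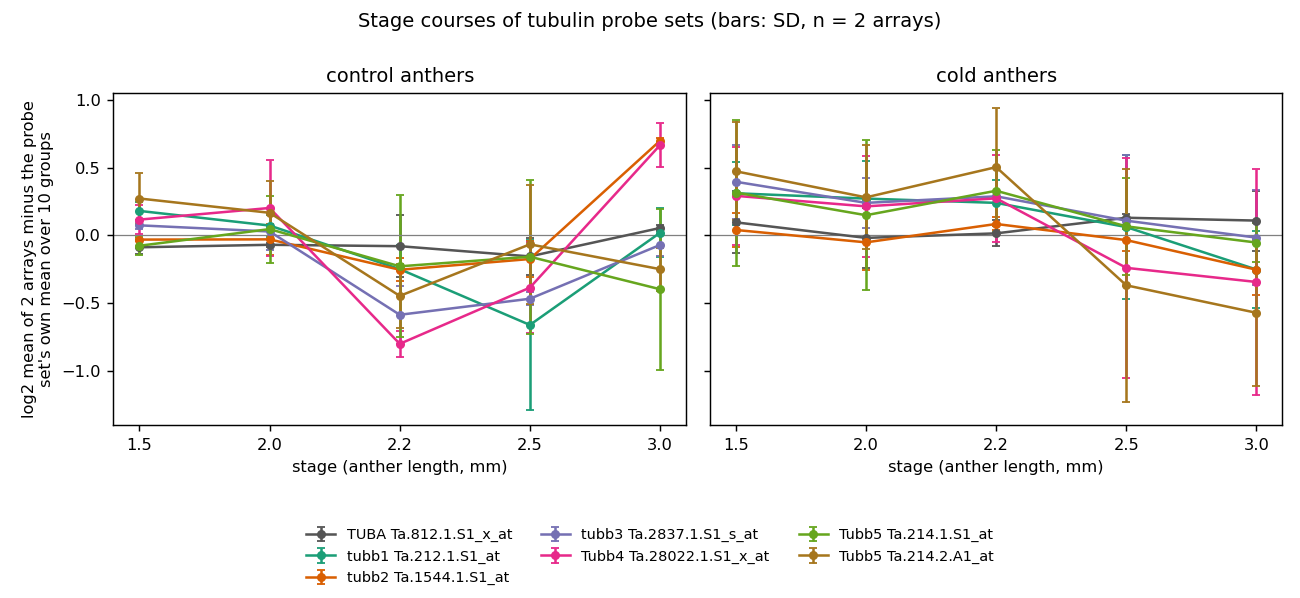
Mean log2 value of the 2 arrays of a group, less the same probe set's mean over the 10 groups (y axis), against anther length in mm (x axis) for 7 probe sets, with SD bars (n = 2) and control at left, cold at right. In the control tubb2 and Tubb4 end above 0 and Tubb5 below it, and in the cold the 6 beta-tubulin sets drawn end below 0 while TUBA does not.

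In cold anthers the stage courses were flatter or declining. No tubulin probe set was called in any of the 4 steps, nor passed. The calls over all probe sets were 0.5% from stage 1.5 to 2.0 and 0.0% from 2.0 to 2.2, 0.0% from 2.2 to 2.5 and 0.0% from 2.5 to 3.0. At an unadjusted p under 0.05, limma gave 0, 0, 2 and 0 of the 9 tubulin probe sets in these steps. Over all 13805 probe sets it gave 1713, 194, 1041 and 528. The estimates were all negative from stage 1.5 to 2.0 (median −0.14) and from 2.5 to 3.0 (median −0.13), but 1 of 9 became positive in each of these after quantile normalization.

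Over the 5 cold stages, Tubb5 Ta.214.2.A1_at was the 1 probe set of 9 that passed and was called (1.93% of all tested passed and 1.82% were called). It read 11.02, 10.85, 11.11, 10.53 and 10.10 in condition A and 10.51, 10.30, 10.49, 9.31 and 9.34 in B. Both arrays were lower at stages 2.5 and 3.0 than that photoperiod's arrays at the 3 stages before. The fitted means spanned 1.08 (limma F-test, adjusted p = 0.0337), which missed the threshold when any 1 of 10 of the 20 arrays was left out (adjusted p up to 0.226, without the B array of stage 1.5). The companion set Ta.214.2.A1_x_at read 10.95, 10.81, 10.90, 10.47 and 10.10 in A and 10.45, 10.13, 10.39, 9.30 and 9.19 in B, the same course, but did not pass.

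The comparison of cold with control at equal anther length asked which isotypes differ with temperature. Because stage is a length, a difference in level cannot be told apart from a cold anther that develops more slowly than it grows. At stage 1.5, all 9 estimates were above 0 (8 of 9 after quantile normalization), with a median of 0.20 against 0.03 over all probe sets, and 0 were called (0.283% of all tested). At stage 2.0, the median was 0.10 and 0 were called (0.0%). At both stages limma gave 0 of the 9 with an unadjusted p under 0.05, beside 1201 and 581 of all 13805 tested.

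At stage 2.2 beta-tubulin probe sets of 3 genes, tubb3, Tubb4 and Tubb5, were higher in the cold. Tubb4, the only 2-fold call (1 of 9, against 12.0% of all tested), read 10.10 in A and 9.65 in B against 8.86 in E and 8.73 in F. Both cold arrays were above both control arrays, by 1.24 at 12 h and 0.92 at 14 h. The estimate was 1.08 ± 0.27 (SE, n = 2 a group, limma adjusted p = 0.0163), or 2.11-fold. Without the E array of stage 2.2 it was 0.87 (adjusted p = 0.141), and without the A or B array the adjusted p was 0.0733 or 0.0893.

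With no fold limit, 5 of the 9 probe sets passed as higher at stage 2.2, against 10.6% of all probe sets tested. These were tubb3, Tubb4 and 3 of the 4 Tubb5 sets. For tubb3 the arrays read 13.23 in A and 12.93 in B against 12.06 in E and 12.36 in F, a change of 0.88 ± 0.18 (limma adjusted p = 0.00682). For Tubb5 Ta.214.2.A1_at they read 11.11 and 10.49 against 10.01 and 9.68, a change of 0.95 ± 0.21 (adjusted p = 0.00794). In both, each cold array stood above each control array. The other Tubb5 sets were at 0.84 ± 0.23 (Ta.214.2.A1_x_at, adjusted p = 0.0241), 0.69 ± 0.18 (Ta.214.1.S1_x_at, adjusted p = 0.0182) and 0.56 ± 0.20 (Ta.214.1.S1_at, adjusted p = 0.0633, not passed).

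The remaining isotypes at stage 2.2 did not pass. The estimate of tubb1 was 0.49 ± 0.21 (limma adjusted p = 0.122), of tubb2 0.34 ± 0.14 (0.0958) and of TUBA 0.09 ± 0.15 (0.689). Leaving out the A array of stage 2.2 ended the pass of tubb3 (adjusted p = 0.0519), of Ta.214.2.A1_at (0.0576), of Ta.214.2.A1_x_at (0.104) and of Ta.214.1.S1_x_at (0.106), and leaving out the E array did so too (0.0873, 0.0756, 0.176 and 0.0563). Without the B array Ta.214.2.A1_x_at (0.109) and Ta.214.1.S1_x_at (0.0713) missed the threshold, and without the F array Ta.214.1.S1_x_at (0.0775) did.

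At stage 2.5 tubb1, which had not passed at 2.2, and tubb3, which had, were higher in the cold (2 of 9, against 12.8% of all tested passing as higher) and none of them called (0 of 9, against 16.5%). The arrays of tubb1 read 13.29 in A and 12.55 in B against 12.64 in E and 11.75 in F, so that the B array overlapped the control, and the change was 0.72 ± 0.21 (limma adjusted p = 0.0239). Without the F array, which holds its lowest value, it was 0.41 (adjusted p = 0.262), and the adjusted p was 0.161 without the A array, 0.0519 after quantile normalization and 0.0811 with no photoperiod term. For tubb3 the arrays read 13.24 and 12.56 against 12.36 and 12.29, a change of 0.58 ± 0.18 (adjusted p = 0.0337). It missed the threshold in 8 of 30 alternatives, which were the A (0.248), E (0.149) or F (0.0806) array left out, no filter (0.0567), quantile normalization (0.11), no variance trend (0.0532), no photoperiod term (0.0786) and a photoperiod term for each stage (0.0723). The change of the cold effect from stage 2.2 to 2.5 was not tested. Tubb4, 9.94 and 8.79 against 9.45 and 8.98, no longer differed by more than its spread (0.15 ± 0.27, adjusted p = 0.721).

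At stage 3.0 the difference ran the other way for tubb2 and Tubb4. Of the 9 probe sets, 2 passed as lower in the cold (19.6% of all tested did) and 1 was called (27.2% of all tested). The arrays of tubb2 read 12.33 in A and 12.60 in B against 13.40 in E and 13.43 in F, with no overlap. The change was −0.95 ± 0.14 (SE, limma adjusted p = 0.000111), 1.94-fold lower, just under the fold limit, and it passed in all 29 alternative settings. Tubb4 read 9.85 and 8.67 against 10.38 and 10.15, also without overlap.

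The Tubb4 change at stage 3.0 was −1.01 ± 0.27 (limma adjusted p = 0.0096). The difference was −0.54 at 12 h and −1.49 at 14 h, and without the B array the estimate was −0.64 (adjusted p = 0.138). Without the F array it was −0.86 (adjusted p = 0.0822), and without both B arrays of stages 2.5 and 3.0, an alternative chosen after seeing the data, −0.59 (adjusted p = 0.0595). The other 7 probe sets did not pass. Among them tubb3, at 13.03 and 12.53 in the cold and 12.78 and 12.67 in the control, overlapped fully (0.05 ± 0.18), and tubb1 was at −0.27 ± 0.21 (adjusted p = 0.34).

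**Figure D3:**
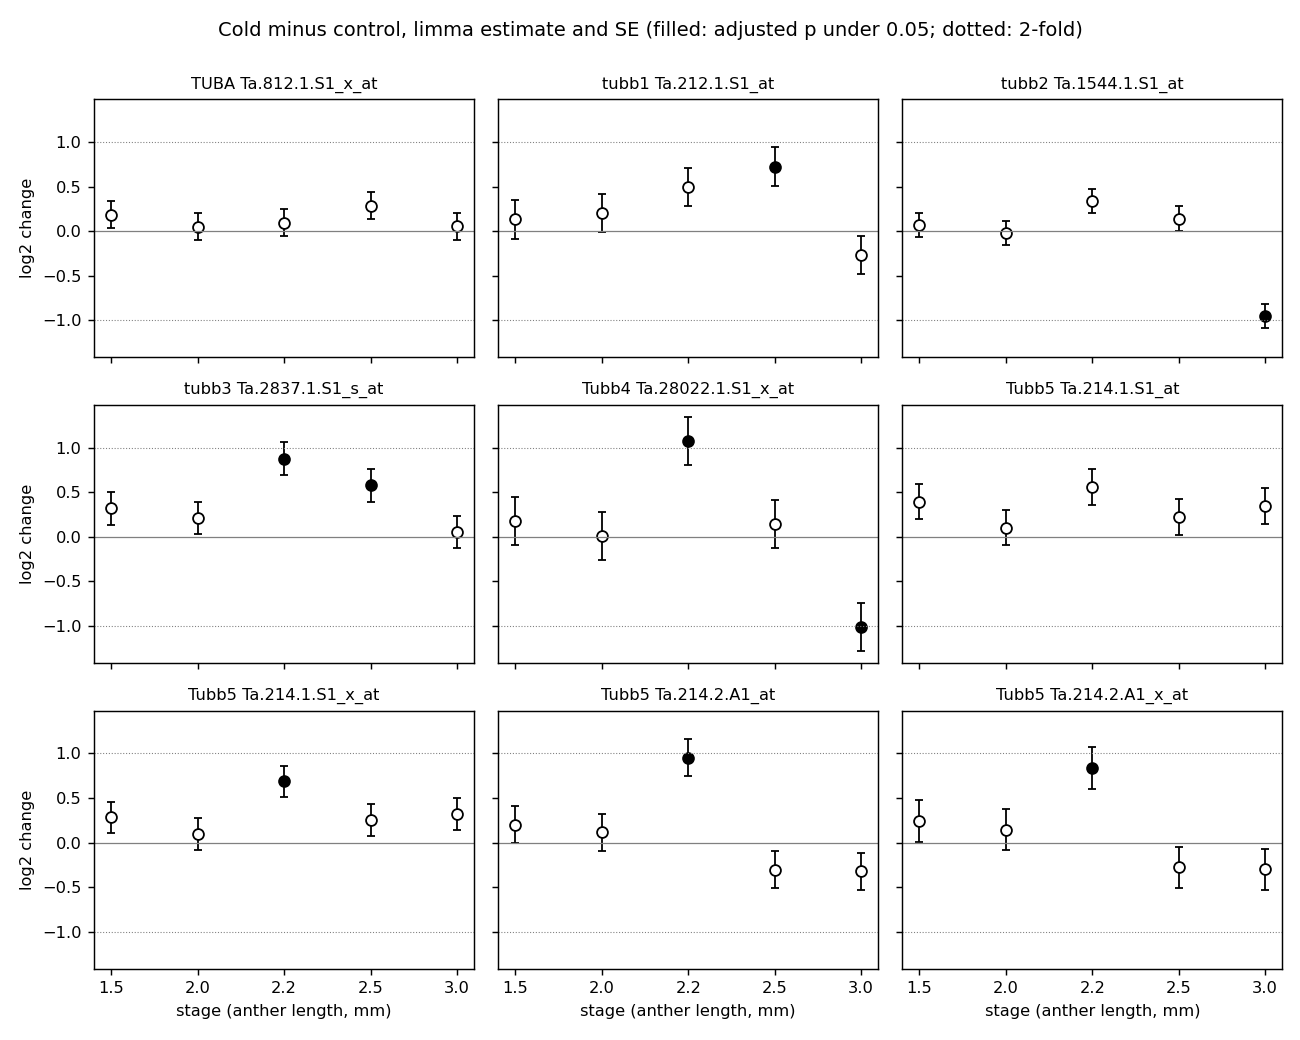
Cold minus control log2 change (y axis) with its SE from limma at each anther length in mm (x axis) for the 9 tubulin probe sets, filled where the adjusted p is under 0.05, with dotted lines at 2-fold. Tubb4 lies at 1.08 at stage 2.2 and −1.01 at stage 3.0, tubb2 leaves 0 at stage 3.0 (−0.95), and TUBA stays within 0.29 of 0.

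The change of the cold effect between stages 2.2 and 3.0 was tested itself, as the cold minus control difference at 3.0 less that at 2.2. Of the 9 probe sets, 4 were called, all lower (23.0% of all tested were called in either direction), and 5 passed as lower (12.4% of all tested). The difference was −2.09 ± 0.38 for Tubb4 (limma adjusted p = 0.00146) and −1.29 ± 0.19 for tubb2 (0.000315). It was −1.28 ± 0.29 for Tubb5 Ta.214.2.A1_at (0.00621), −1.14 ± 0.33 for Ta.214.2.A1_x_at (0.0227) and −0.82 ± 0.26 for tubb3 (0.035). The contrast was chosen with earlier results of these data known, those of Tubb4 among them. Its sizes and p-values are therefore no independent evidence for any of these probe sets.

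These differences were built from unlike parts. In tubb2 the cold effect was 0.34 at stage 2.2, which did not pass, and −0.95 at stage 3.0. In tubb3 it was 0.88 and 0.05, and in Tubb4 1.08 and −1.01. Those of Tubb4, tubb2 and Ta.214.2.A1_at passed without each single array. Ta.214.2.A1_x_at missed the threshold without the A (0.0623), B (0.0621) or E (0.0921) array of stage 2.2 or the B (0.104) or F (0.11) array of stage 3.0, and tubb3 without any 1 of 7 arrays (up to 0.169, without the E array of stage 2.2). All 9 estimates were negative, with a median of −0.82 against −0.12 over all probe sets, and 1 of 9 turned positive with arrays centred on their medians. The mean cold effect of the 3 later stages less that of the 2 earlier ones gave 0 calls among the 9 (13.1% of all tested), with a median of 0.03. At an unadjusted p under 0.05 limma gave 0 of 9 for it, beside 4717 of all 13805 tested.

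Photoperiod was compared within each temperature over the 5 stages. In the cold, every estimate of 14 h minus 12 h was below 0, although 1 of 9 was above it after either rescaling of the arrays. Of the 9, 4 passed as lower (0.985% of all tested did), none of them 2-fold (0 called, against 0.464%). Tubb4 was lower at 14 h by 0.51, 0.53, 0.46, 1.15 and 1.18 at the 5 stages in turn, a mean of −0.76 ± 0.14 (SE, limma adjusted p = 0.0461). Tubb5 Ta.214.2.A1_at was lower by 0.51, 0.55, 0.62, 1.22 and 0.76, a mean of −0.73 ± 0.11 (0.0461), and Ta.214.2.A1_x_at had a mean of −0.75 ± 0.11 (0.0461).

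The fourth was tubb3, with a mean of −0.43 ± 0.09 (limma adjusted p = 0.0461), lower at 14 h at all 5 stages. The isotype tubb1 was lower at all 5 stages too (mean −0.42 ± 0.13, adjusted p = 0.0792), while tubb2 was lower at 14 h at stages 1.5 and 2.0 and higher at the rest (mean 0.00 ± 0.09, adjusted p = 0.989). TUBA was lower at the first 3 stages and higher at 2.5 and 3.0, by −0.32, −0.32, −0.14, 0.04 and 0.31 in turn (adjusted p of the mean = 0.594). The 4 passes lay close to the threshold. Leaving out any 1 of 12 arrays ended that of Tubb4 and of both Tubb5 sets, and any 1 of 16 that of tubb3. The highest adjusted p came without an array of cold stage 2.5, 0.197 for Tubb4 and tubb3 and 0.172 for both Tubb5 sets. Without both B arrays of stages 2.5 and 3.0, whose medians were the lowest of all, the 4 means were −0.50, −0.56, −0.56 and −0.32 with adjusted p-values of 0.467, 0.449, 0.449 and 0.489. Over all probe sets tested the median difference of the B from the A array was −0.12 at stage 2.5 and −0.19 at stage 3.0, and what part this shift has in the tubulin values was not tested.

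In control anthers the 9 estimates were also all below 0 (2 of 9 above it after quantile normalization), with a median of −0.24 against 0.00 over all tested, and 0 passed or were called (0.174% of all tested were called). At an unadjusted p under 0.05 limma gave 4 of 9, beside 2551 of all 13805 tested. These were the 4 Tubb5 sets, all annotated to the same gene. Tubb5 Ta.214.1.S1_at read 9.68, 9.93, 9.85, 9.95 and 9.73 in E and 9.58, 9.58, 9.11, 9.15 and 8.89 in F, lower at 14 h at each stage, by 0.57 ± 0.13 on average (adjusted p = 0.0768). The difference between both temperatures in the photoperiod effect gave 0 calls (0.0217% of all tested) and no pass. With an unadjusted p under 0.05 in limma there were 4 of 9, beside 3315 of all 13805 tested. The smallest adjusted p was 0.116 (tubb3, −0.40 ± 0.12). A photoperiod effect that differs between cold and control was therefore not shown for any tubulin.

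**Figure D4:**
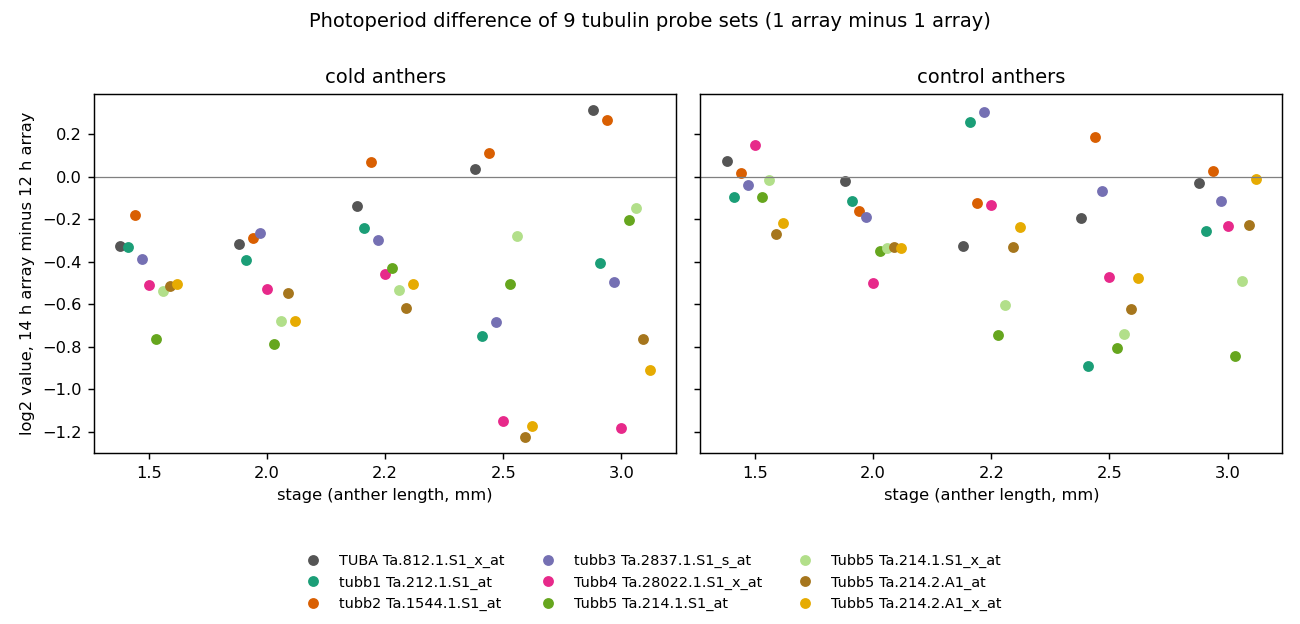
Log2 value of the 14 h array less that of the 12 h array (y axis) at each anther length in mm (x axis) for the 9 tubulin probe sets, 1 point for each, with cold at left and control at right. Points lie mostly below 0, and the 5 lowest in the cold, from −0.91 to −1.22, belong to Tubb4 and the Ta.214.2.A1 sets of Tubb5 at stages 2.5 and 3.0.

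The 4 Tubb5 probe sets formed 2 pairs that parted at late stages. The sets of each pair have IDs that differ only in the ending, and whether they share probes was not checked. Over the 20 arrays the sets of a pair correlated at r = 0.965 (Ta.214.1) and r = 0.99 (Ta.214.2), while r across the pairs was 0.686 to 0.721. At stage 3.0, Ta.214.1.S1_at read 9.75 in A and 9.55 in B against 9.73 in E and 8.89 in F, a change of 0.35 ± 0.20 (limma adjusted p = 0.188). Ta.214.2.A1_at read 10.10 and 9.34 against 10.15 and 9.93, a change of −0.32 ± 0.21 (adjusted p = 0.236). The signs were opposite, and neither passed. Both pairs are annotated to 1 gene, so the direction of Tubb5 at stage 3.0 is not settled by these arrays.

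Among isotypes, the courses of tubb1, tubb3 and Tubb4 ran together over the 20 arrays, at r = 0.832 for tubb1 with tubb3, 0.75 for tubb3 with Tubb4 and 0.725 for tubb1 with Tubb4. This was not particular to them, since the Ta.214.2 sets of Tubb5 correlated with each of them at r = 0.696 to 0.728. For the Ta.214.1 sets of Tubb5 it was 0.442 to 0.673. These correlations share arrays, scaling and possibly probes that bind several transcripts, and are given as a description. The isotype tubb2 was less like most beta-tubulins, at r of −0.099 to 0.076 with the Tubb5 sets, 0.193 with tubb3 and 0.21 with tubb1. With Tubb4, which also rose at stage 3.0 of the control, its r was 0.563. Without the 2 control arrays of stage 3.0, where tubb2 rose, these values became 0.447 to 0.535, 0.5, 0.391 and 0.425 in turn. Outside the tubulins, the probe set most like each member correlated at r = 0.83 (for TUBA) to 0.955 (for tubb3), and 8 of these 9 neighbours have no gene symbol in the annotation used, while that of TUBA has a LOC symbol with no further name.

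Other lists of cytoskeleton genes were small. No further tubulin, microtubule-associated or motor protein gene was found by name. The actin list held 2 probe sets of profilin, which binds actin monomers, and neither was called in any of the 20 comparisons. In the list of cell cycle genes, all 17 probe sets tested were histones H2A or H2B, the spools of nuclear DNA. At stage 2.2, 1 of 17 was called as higher in the cold (median 0.74), at 2.5 it was 12 of 17 (median 1.1) and at 3.0 17 of 17 (median 2.45, 1.29 to 3.76). Of all 13805 probe sets tested, 626, 806 and 1921 were called higher at these stages in turn. None of the 17 was called lower at these stages. In the control, 15 of the 17 were called lower from stage 2.5 to 3.0 (1712 of all 13805), the step at which tubb2 and Tubb4 rose.

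Markers of cell types moved between the same groups. As a background, 1031 of all 13805 probe sets tested were called lower in the cold at stage 2.2, 1467 at 2.5 and 1830 at 3.0. At stage 2.2 all 4 raftin probe sets of the tapetum were called lower in the cold, and the list's mean level was 10.38 to 11.68 in the cold arrays and 12.70 to 13.02 in the control arrays. Of 9 tested probe sets of photosynthesis genes, 5 were called lower there, at a mean level of 9.52 to 9.91 against 11.09 to 11.22. At stage 2.5, 1 of 4 raftin sets and 5 of 9 photosynthesis sets were called lower, and at stage 3.0 0 of 4 and 2 of 9, with mean levels at 3.0 of 12.03 to 12.62 against 13.24 to 13.52 and of 10.39 to 10.67 against 11.25 to 11.36. Of 3 probe sets taken as late pollen markers, that annotated as amy1 or BMY1, an amylase gene, was called lower in the cold at stages 2.2 (−2.37), 2.5 (−3.52) and 3.0 (−3.67), and the other 2, of profilin, were not. The mean level of these 3 at stage 3.0 was 11.38 to 11.77 in the cold and 12.85 to 12.94 in the control. The 2 profilin sets were at −0.13 and −0.15 there, so the mean differed mainly through the amylase set. At that stage the mean level of the histone list was 11.0 to 11.08 in the cold and 8.27 to 8.90 in the control. The part of these differences in cell make-up in the tubulin values was not tested.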

How the data were processed

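RNA of BS366 anthers was hybridised to Affymetrix Wheat Genome arrays, 1 for each of 4 conditions and 5 stages. The authors deposited 1 table of log2 expression values. The labels name MAS5, whose version is not given in the sources read, nor is the scaling between arrays. In 12103 of 28894 probe sets at least 3 arrays hold an equal value, none of them a tubulin member. Of 28895 entries, 1 reporter control was left out. The array number limits the precision.

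Members and lists were chosen with earlier results of these data known. Members were every probe set with a symbol or synonym that begins with TUB or Tub, and each was named. Synonyms came from RefSeq (IWGSC CS RefSeq v2.1) by gene ID. Other lists were chosen by gene name, and likeness was the highest Pearson correlation over the 20 arrays. No coordinates are given, since the files name no genome build.

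Values were fitted as deposited in R 4.3.3 (limma 3.58.1). The model held 1 mean per temperature and stage plus a common photoperiod term (9 residual degrees of freedom). For the photoperiod comparison it had a term for each temperature (8 residual degrees of freedom). The variance prior had a trend over expression. P-values were adjusted by Benjamini-Hochberg over the 13805 probe sets above the 60th percentile in both arrays of a group. The procedure was tested on simulated data. Alternatives were no filter or a filter at the 75th percentile, quantile normalization, median centring, a floor at the 40th percentile, no variance trend, other photoperiod terms, the thresholds of the study's methods (unadjusted p and 2-fold in both photoperiods) and each array left out. Leaving out both control arrays of stage 3.0, or both cold 14 h arrays of stages 2.5 and 3.0, was added after seeing the data.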

Additional observations from a re-analysis of the deposited data

Results flagged for a closer look

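The cold effect (cold minus control, log2) differed between stages 2.2 and 3.0 in 5 tubulin probe sets by limma's test of the difference itself. The effect at stage 3.0 less that at stage 2.2 was −2.09 for Tubb4, −1.29 for tubb2, −1.28 and −1.14 for Tubb5 Ta.214.2.A1_at and Ta.214.2.A1_x_at, and −0.822 for tubb3. The difference was below 0 within both photoperiods for each of these probe sets. This contrast was chosen with earlier results of these data known, so its values are no independent evidence. Since stage is an anther length, a change in level and a change in the pace of development cannot be told apart.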

How the results depend on the processing

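Of 825 values of the 28 changes that passed under the alternatives, 628 kept direction and threshold, 197 kept direction only and 0 reversed. The tubb2 rise from 2.5 to 3.0 in the control, its stage course, its cold difference at 3.0 and the 2.2-to-3.0 difference of tubb2 and Tubb4 passed throughout. Of the changes that passed, those that no longer did were 9 of 28 with no filter, 8 of 28 with no variance trend, 2 of 28 after quantile normalization, 18 of 24 with no photoperiod term, 8 of 24 with a photoperiod term for each stage, 3 of 4 with one term for both temperatures, 6 of 13 without both control 3.0 arrays and 7 of 28 without both cold 14 h arrays of 2.5 and 3.0. A stricter filter, median centring and raised dim values ended none. Counts of called tubulin probe sets moved in 59 of 599 cases. With no photoperiod term the counts were 0 for cold against control at 2.2 and at 3.0, 0 for both control steps with 1 call and for both stage courses, and 2 for the 2.2-to-3.0 difference. The thresholds of the methods gave 0 at 2.2 and at 3.0. Quantile normalization and median centring gave 0 at 3.0. The control step 2.0 to 2.2 fell to 0 with no filter, median centring, no variance trend, a photoperiod term for each stage or both control 3.0 arrays left out. The stage course in the control had 2 calls with median centring. That in the cold had 0 with no filter, median centring, a photoperiod term for each stage, both control 3.0 arrays left out or both cold 14 h arrays of 2.5 and 3.0 left out. Leaving out each array gave 0 to 3 calls at 2.2, 0 to 1 at 2.5, 0 to 1 at 3.0, 0 to 1 in each control step with a call, 0 to 2 in the cold step 2.2 to 2.5, 3 to 6 for the 2.2-to-3.0 difference, 1 to 2 over control stages and 0 to 2 over cold stages. The cause was not tested. Median centring moved the median over all probe sets by over 0.1 for cold against control at 2.5 (−0.05 to 0.10) and for the cold step 2.2 to 2.5 (−0.10 to 0.06). The labels give no replicate numbers. For temperature and stage, photoperiod was 1 term common to all arrays, which adjusts for it but does not pair arrays within a stage. The counts with no photoperiod term are those of the fit without it. Brightness over background was not given, so dim probe sets were judged by percentile.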
